A study of Homo sapiens with 6 samples.

Results

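Frizzled proteins are multi-pass membrane receptors that bind Wnt ligands through a cysteine-rich domain outside the cell. LRP5 and LRP6 join the Frizzled and Wnt complex as co-receptors and stabilise β-catenin through phosphorylated tails that bind Axin, whereas ROR2 is a receptor tyrosine kinase-like protein best known as a receptor for WNT5A outside the β-catenin pathway. The report covers 10 genes chosen by name, namely the Frizzled genes FZD1, FZD2, FZD3, FZD4, FZD6, FZD7 and FZD8, the co-receptor genes LRP5 and LRP6, and ROR2. All 10 were among the 15897 genes listed. The cells were labelled H1650, an established line from a human lung adenocarcinoma. RNA was measured in 6 libraries, 3 of cells labelled control and wild type and 3 of cells labelled shSETD2, in which a lentiviral short hairpin RNA is directed against SETD2, the H3K36 methyltransferase. Silenced H1650 cells were made with 3 hairpin constructs, but the sources used here do not say which construct each shSETD2 library carries or whether the libraries come from separate cultures, so the p-values measure only the spread between these libraries.

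In the shSETD2 libraries the FZD6 transcript was higher, and 8 of the 10 genes (FZD1, FZD2, FZD3, FZD4, FZD7, FZD8, LRP5 and LRP6) were lower. FZD7 showed the largest decrease on the log2(FPKM + 1) scale, with a mean FPKM 5.69-fold lower, and FZD3 the largest ratio of mean FPKM, at 6.28-fold lower. FZD6 rose 1.83-fold and became the most abundant of the 10, with 55.7% of the summed FPKM of the 7 Frizzled genes against 21.8% in the control libraries. ROR2 did not pass the test. The calls of FZD1 and FZD2 as lower each depended on how the libraries were scaled. The differences stood in a comparison in which 78.6% of all 14068 genes tested passed the same threshold, 26.8% higher and 51.8% lower. The number of genes called among the 10 was read against those shares.

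Expression was given as FPKM, that is, fragments scaled to gene length and library size, which allows levels to be compared between genes. The number of fragments behind a value is unknown, because at best 17.9% to 23.6% of the low values of single-exon genes in a library were multiples of a common step, within 0.05 of a whole number. The summed FPKM was between 218800 and 224600 in the 6 libraries. Pearson's r of log2(FPKM + 1) across genes, which are not independent replicates, was at least 0.982 within a group and at most 0.707 between groups. In the order of their numbers, the control libraries held 18.0, 10.2 and 17.6 FPKM of SETD2 and the shSETD2 libraries 8.97, 8.09 and 12.2 FPKM, so the groups overlapped and the targeted gene did not pass the test (limma, adjusted p = 0.0641). The libraries are therefore named by their labels. Of 12 markers of lung epithelium, 3 were listed. The surfactant genes SFTPA1, SFTPA2, SFTPB, SFTPC and SFTPD were not listed, while the 3 listed markers differed in direction. NKX2-1, used here as a marker of lung epithelium, had a mean of 1.65 FPKM in control and 0 in shSETD2 libraries. In the same order, ABCA3 was at 13.5 and 8.32 FPKM, and LAMP3 was at 0.584 and 1.23 FPKM. Of 14 epithelial markers 10 were listed, with 3 at a mean of 1 FPKM or more in control and 4 in shSETD2 libraries, and their summed FPKM was 14.5 to 16.6 in control and 406.1 to 458.9 in shSETD2 libraries. The keratin genes KRT18 (10.04 and 254.6 FPKM on average in control and shSETD2), KRT8 (2.86 and 93.9) and KRT7 (0.0208 and 81.9) made up most of the sum in shSETD2 libraries. ELF3 (0.221 and 4.23 FPKM), ESRP1 (0.0176 and 0.803) and CLDN4 (0.0670 and 0.175) were also higher on average, whereas CDH1 (1.27 and 0.0120), EPCAM (0.710 and 0.220), CLDN7 and ST14 were lower. Of 12 mesenchymal markers 9 were listed, with 7 and 4 at 1 FPKM or more and sums of 104.7 to 119.6 and 170.0 to 180.3. VIM (66.5 and 132.4 FPKM on average in control and shSETD2) made up most of these sums. FN1 (6.37 and 14.0) and CDH2 (20.5 and 23.15) were also higher on average. TWIST1 (7.91 and 0), COL1A1 (2.78 and 0.269), COL3A1 (0.739 and 0.00854), ZEB2 (1.99 and 0.656), ZEB1 (3.76 and 3.32) and PDGFRB were lower. All 12 markers of the renal lineage were listed, with 9 and 6 at 1 FPKM or more and sums of 53.1 to 57.1 and 50.2 to 60.0, although SIX2 was at 5.49 against 0 and PAX8 at 0.0172 against 30.8 FPKM. These marker differences moved with the group labels, so different cells in the groups and an effect of the hairpin cannot be told apart. The identity of the cells was not tested, nor was the part of the marker differences in the receptor differences.

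The receptors share a short cytoplasmic stretch by which Frizzled proteins bind Dishevelled, a lysine and threonine followed after 3 further residues by a tryptophan. It was found 1 time in the coding sequence of each of the 7 Frizzled genes. The sequences below show how far the paralogs differ at this site, which is only a small part of each transcript. They were read from GRCh37 on the coding strand, 5′ to 3′, and capitals mark the codons of the motif. Those of FZD3 and FZD6 are not shown.
FZD1: tccggcAAGACCCTCAACTCCTGGaggaag
FZD2: tcgggcAAGACGCTGCACTCGTGGaggaag
FZD7: tcgggcAAGACCCTGCAGTCGTGGcgccgc
FZD8: tccggcAAGACGCTGGAGTCCTGGcgctcc
FZD4: tctgccAAAACTCTTCACACGTGGcagaag

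The FZD1 stretch lies on chromosome 7 from 90896062 to 90896091 (plus strand), that of FZD2 on chromosome 17 from 42636677 to 42636706 (plus strand) and that of FZD7 on chromosome 2 from 202901018 to 202901047 (plus strand). In these genes, which have 1 exon each, the motif ends 17 residues before the end of the protein. The FZD8 stretch lies on chromosome 10 from 35928513 to 35928542 (minus strand), also in a gene of 1 exon, with 81 residues after the motif. The FZD4 stretch lies in coding exon 2 of 2 on chromosome 11 from 86662280 to 86662309 (minus strand), with 33 residues after it. Of the 30 bases, FZD1 and FZD2 share 25, FZD7 and FZD8 share 24, and FZD4 and FZD8 share 16.

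In LRP5 and LRP6, the tail carries proline-rich motifs whose serine or threonine is phosphorylated when a Wnt binds. Such a motif (PPP, then S or T, then P) was found 3 times in each gene. The first copy in the protein lies in exon 22 of 23 of either gene, on chromosome 11 from 68213907 to 68213936 (plus strand) for LRP5 and on chromosome 12 from 12277564 to 12277593 (minus strand) for LRP6, and 23 of the 30 bases are identical. Capitals mark its codons.
LRP5: ctgaacCCGCCGCCCTCCCCGgccacggac
LRP6: ttgaacCCTCCACCATCCCCAgccacagag

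The proteins of FZD1, FZD2 and FZD7 form the closest group, with 80.1% to 81.3% identical residues in each pair. FZD3 and FZD6 share 54.6%, FZD8 shares 54.9% with FZD7, and LRP5 and LRP6 share 70.9%. Few exact 50-base words of these genes occurred in transcripts of other genes, although reads themselves were not examined. Of the 50-base words in the canonical transcript of each gene, at most 2.20% (FZD2) also occurred in a transcript of another gene, and at most 1.39% (FZD2) in another of the 10 genes.

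**Figure D1:**
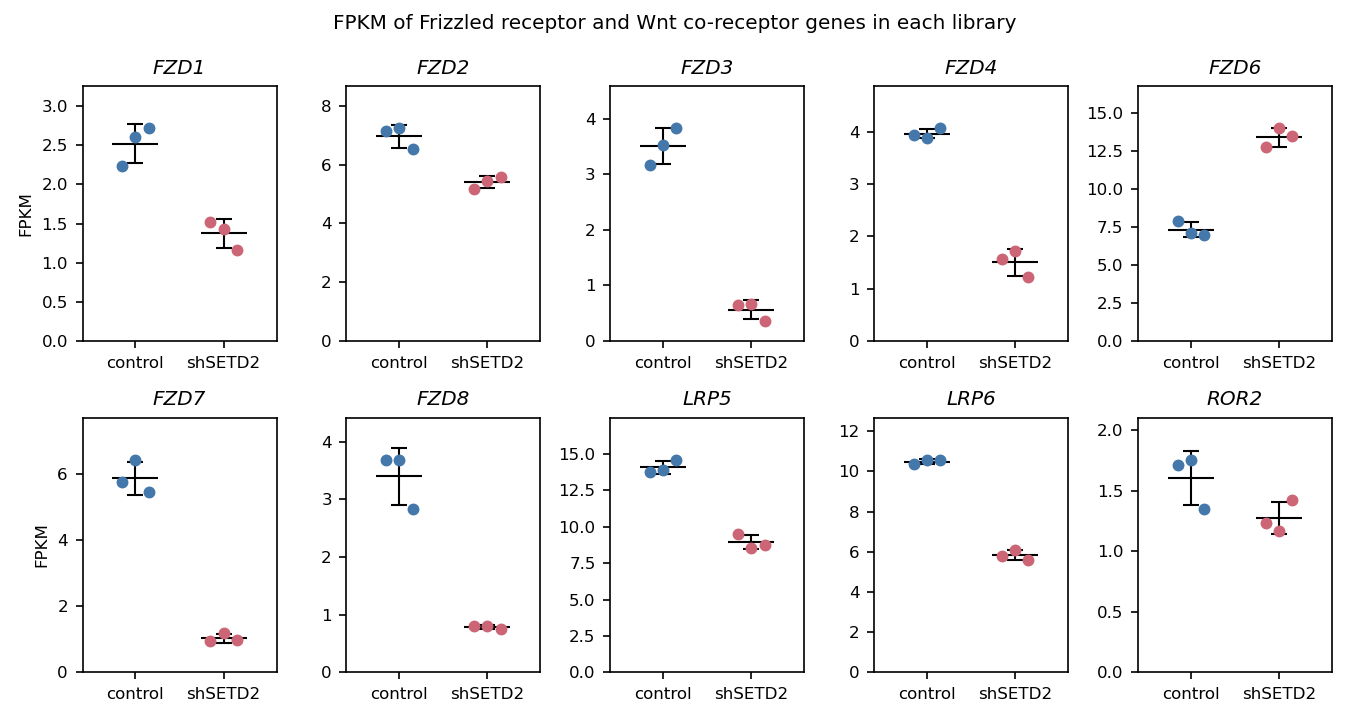
FPKM (vertical axes, each starting at 0) of the 10 genes in each of the 3 control libraries (blue) and 3 shSETD2 libraries (red), with the mean as a horizontal line and the SD as bars. The groups are apart for 9 genes, with FZD6 alone above in shSETD2, and overlap for ROR2.

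The groups were compared on log2(FPKM + 1) with limma over the 14068 genes with a mean of at least 0.5 FPKM, with Benjamini-Hochberg adjustment and a threshold of 0.05. All 10 receptor genes entered the test. At this threshold 1 was higher and 8 were lower, against 26.8% and 51.8% of all genes tested. The groups did not overlap for the same 9 genes, against 80.9% of all genes tested. The median log2 fold change was -0.68 for the 10 genes and -0.99 for the 7 Frizzled genes, against -0.29 for all genes. In bulk RNA, fewer cells that express a gene and less transcript per cell cannot be told apart. The smallest p-value of an exact permutation test of 3 libraries against 3 is 0.1. Smaller p-values therefore rest on the normal model of limma, which combines a gene's own spread with a spread estimated across genes. An ordinary linear model per gene, which uses only the gene's own spread, called 9 of the 10 receptor genes at the same threshold.

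FZD6, a receptor of planar cell polarity signaling, lies on chromosome 8 of GRCh37 from 104310661 to 104345094 (ENSG00000164930.11_2). By library number, here and below, the control values were 7.86, 7.10 and 6.97 FPKM and the shSETD2 values were 12.7, 14.0 and 13.5 FPKM. The lowest shSETD2 value exceeded the highest control value. The mean rose from 7.31 ± 0.481 to 13.4 ± 0.627 FPKM (SD, n = 3), which on the log2 scale was 0.79 (95% interval 0.64 to 0.94, limma adjusted p = 3.31e-05). Its level moved from the 61.9th to the 80.4th percentile of the genes tested. The direction and the call held in all 17 alternative analyses, between 0.76 and 1.11.

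FZD3, the closest relative of FZD6 among the 10 and likewise a planar polarity receptor with a role in axon guidance, went the other way. It lies on chromosome 8 from 28351722 to 28431785 (ENSG00000104290.10_3). Its values were 3.16, 3.53 and 3.83 FPKM in the control libraries and 0.656, 0.658 and 0.362 FPKM in the shSETD2 libraries. All shSETD2 libraries were below 1 FPKM and far below the lowest control library. The mean fell from 3.51 ± 0.332 to 0.559 ± 0.170 FPKM (SD, n = 3), which on the log2 scale was -1.54 (95% interval -1.78 to -1.29, limma adjusted p = 1.61e-05). At such low levels the pseudocount of 1 holds the change down, and a pseudocount of 0.01 gave -2.68. The ratio of FZD6 to FZD3 within a library, which does not depend on library scaling, was 1.82 to 2.48 in control and 19.4 to 37.3 in shSETD2 libraries.

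FZD7, a Wnt receptor of stem and progenitor cells, lies on chromosome 2 from 202899310 to 202903168 (ENSG00000155760.2_2). It was at 5.75, 6.42 and 5.45 FPKM in control and at 0.935, 1.18 and 0.978 FPKM in shSETD2 libraries. The groups were separated by a wide gap, and by mean FPKM FZD7 moved from place 5 to place 8 of the 10 genes. Its place in the shSETD2 libraries is not resolved, because its range overlapped that of ROR2 there. The mean fell from 5.87 ± 0.499 to 1.03 ± 0.132 FPKM (SD, n = 3), which on the log2 scale was -1.76 (95% interval -1.95 to -1.57, limma adjusted p = 2.67e-06). Of all genes tested, 5.16% had a lower log2 fold change.

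Its close relatives FZD1 and FZD2 changed less. FZD1 (ENSG00000157240.3_2, chromosome 7, 90893679 to 90900641) was at 2.24, 2.61 and 2.71 FPKM in control and at 1.52, 1.44 and 1.17 FPKM in shSETD2 libraries. FZD2 (ENSG00000180340.6_2, chromosome 17, 42634827 to 42636938) was at 7.15, 7.23 and 6.52 FPKM in control and at 5.18, 5.44 and 5.58 FPKM in shSETD2 libraries. Neither gene overlapped between the groups. The log2 fold change of FZD1 was -0.57 (95% interval -0.78 to -0.36, limma adjusted p = 9.24e-04) and that of FZD2 was -0.31 (95% interval -0.45 to -0.18, limma adjusted p = 2.31e-03). The decrease of FZD2 was close to the median of all genes, and it was lost with median ratio scaling of the libraries (-0.01, adjusted p = 0.898 in limma). FZD1 was at -0.34 with that scaling (adjusted p = 0.0104 in limma), and its call was lost with quantile normalization (-0.20, adjusted p = 0.0623 in limma), while a pseudocount of 0.01 gave -0.88. Within a library, the ratio of FZD2 to FZD7 was 1.13 to 1.24 in control and 4.61 to 5.71 in shSETD2 libraries, and the ratio of FZD1 to FZD7 was 0.390 to 0.498 and 1.19 to 1.62. FZD7 thus changed by a different amount than FZD1 and FZD2, whatever factor scales a library. The ratio of FZD2 to FZD1 differed less, at 2.40 to 3.19 in control and 3.42 to 4.79 in shSETD2 libraries. With quantile normalization FZD1 and FZD2 were at -0.20 and -0.17.

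FZD8 (ENSG00000177283.7_3, chromosome 10, 35927177 to 35931206), a receptor whose cysteine-rich domain is a standard model of Wnt binding, was at 3.68, 3.69 and 2.83 FPKM in control and at 0.812, 0.803 and 0.746 FPKM in shSETD2 libraries. The shSETD2 libraries were close to each other, whereas control library 3 was lower than the other controls and still above every shSETD2 library. The mean fell from 3.40 ± 0.492 to 0.787 ± 0.0360 FPKM (SD, n = 3), which on the log2 scale was -1.29 (95% interval -1.52 to -1.07, limma adjusted p = 2.20e-05). A pseudocount of 0.01 gave -2.09.

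FZD4 (ENSG00000174804.3_2, chromosome 11, 86656721 to 86666433) encodes the receptor for Norrin, a ligand unrelated to Wnt proteins that acts in retinal vessels. It was at 3.95, 3.88 and 4.06 FPKM in control and at 1.56, 1.73 and 1.21 FPKM in shSETD2 libraries. The control values lay within a narrow range, above all shSETD2 values. The mean fell from 3.96 ± 0.0915 to 1.501 ± 0.262 FPKM (SD, n = 3), which on the log2 scale was -0.99 (95% interval -1.20 to -0.78, limma adjusted p = 5.86e-05). PRSS23, a protease gene on the opposite strand that overlaps FZD4, was at 1.48, 2.39 and 2.39 FPKM in control and at 1.86, 2.02 and 6.99 FPKM in shSETD2 libraries. The library kit keeps the strand, but the strand setting of the quantification is not given in the sources used here, so reads of the pair cannot be told apart with certainty. FZD4 was lowest in shSETD2 library 3, where PRSS23 was highest, and the part of PRSS23 in the FZD4 values was not tested.

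LRP5 (ENSG00000162337.11_2, chromosome 11, 68080077 to 68216743) was the most abundant of the 10 genes in the control libraries, at 13.8, 13.9 and 14.6 FPKM, and was at 9.52, 8.55 and 8.77 FPKM in shSETD2 libraries. LRP6 (ENSG00000070018.8_2, chromosome 12, 12268959 to 12419946) was at 10.4, 10.6 and 10.6 FPKM in control and at 5.80, 6.10 and 5.59 FPKM in shSETD2 libraries. Every control library was above every shSETD2 library for either gene. The mean of LRP5 fell from 14.1 ± 0.443 to 8.95 ± 0.510 FPKM (SD, n = 3), which on the log2 scale was -0.60 (95% interval -0.73 to -0.47, limma adjusted p = 7.01e-05). The mean of LRP6 fell from 10.5 ± 0.115 to 5.83 ± 0.257 FPKM (SD, n = 3), which on the log2 scale was -0.75 (95% interval -0.87 to -0.64, limma adjusted p = 1.29e-05). With median ratio scaling these were smaller, at -0.27 (adjusted p = 3.69e-03 in limma) for LRP5 and -0.44 (adjusted p = 1.65e-04 in limma) for LRP6. The ratio of LRP5 to LRP6 was 1.33, 1.31 and 1.38 in control and 1.64, 1.40 and 1.57 in shSETD2 libraries. These ranges did not overlap, although shSETD2 library 2 was close to control library 3. Which of the pair fell more depended on the processing, since with the correction for GC content and exon length LRP5 was at -0.81 and LRP6 at -0.66 (exonic GC content 62.6% and 41.0%).

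ROR2 (ENSG00000169071.14_3, chromosome 9, 94325373 to 94712444) was the lowest of the 10 genes in control libraries, at 1.71, 1.75 and 1.35 FPKM, and was at 1.23, 1.17 and 1.42 FPKM in shSETD2 libraries. The groups overlapped, with less ROR2 in control library 3 than in shSETD2 library 3. The log2 fold change was -0.19 (95% interval -0.40 to 0.01, limma adjusted p = 0.0774), and the difference did not hold up against the replicates. Control library 3 decided the call, since without it the log2 fold change was -0.27 (adjusted p = 0.0204 in limma). It was called lower after a correction for GC content and exon length (-0.34, adjusted p = 7.91e-03 in limma), and the sign turned with quantile normalization (0.22) and median ratio scaling (0.02). ROR1, which is the close relative of ROR2 and no member of the 10, rose from 3.63 ± 0.555 to 14.6 ± 0.299 FPKM (SD, n = 3), so that the ratio of ROR1 to ROR2 was 2.18 to 2.35 in control and 10.04 to 12.63 in shSETD2 libraries.

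**Figure D2:**
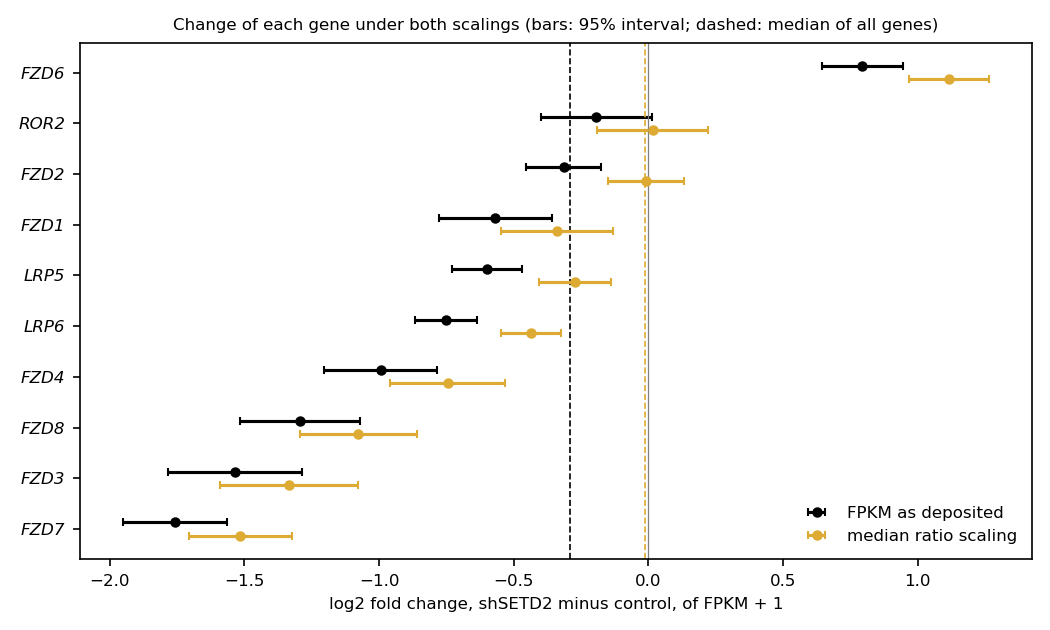
Log2 fold change of FPKM + 1 (horizontal axis, shSETD2 minus control) of each of the 10 genes with its 95% interval from limma, for FPKM as deposited (black) and after median ratio scaling (yellow), with the median of all genes as dashed lines of the same colours. FZD6 lies above 0 and FZD3, FZD4, FZD7 and FZD8 lie well below the median of all genes in either analysis, while FZD2 and ROR2 lie near it.

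The scaling of the libraries moves all genes together. Across all genes the log2 fold change had a median of -0.29 with FPKM as deposited and -0.01 after each library was divided by its median ratio to the geometric mean. With that scaling 37.7% of all genes tested were called higher and 38.3% lower, and of the 10 genes 1 was higher and 7 were lower. The order of the 10 genes by change did not depend on this choice for the extremes, which were FZD6 (1.11) and FZD7 (-1.52) with median ratio scaling. FZD3 was at -1.33, FZD8 at -1.08 and FZD4 at -0.75, each with an interval below 0.

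The order of levels differed between the groups. In the control libraries the order by mean FPKM was LRP5, LRP6, FZD6, FZD2, FZD7, FZD4, FZD3, FZD8, FZD1 and ROR2. The ranges over libraries overlapped for the neighbours FZD6 and FZD2 and for FZD3 and FZD8, so their order is not resolved. In the shSETD2 libraries the order was FZD6, LRP5, LRP6, FZD2, FZD4, FZD1, ROR2, FZD7, FZD8 and FZD3. There the neighbouring ranges overlapped from FZD4 through FZD1 and ROR2 to FZD7, which lay between 1.031 and 1.501 FPKM on average.

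The summed FPKM of the 7 Frizzled genes was 33.8, 34.5 and 32.4 in control and 23.4, 25.2 and 23.5 in shSETD2 libraries, with means of 33.5 ± 1.07 and 24.1 ± 1.02 (SD, n = 3). With FPKM as deposited, the sum was lower in every shSETD2 library although FZD6 was higher there. With median ratio scaling the means were closer, at 29.65 ± 0.88 and 27.2 ± 1.03 FPKM (SD, n = 3). The share of FZD6 in the sum of a library was 23.3%, 20.6% and 21.5% in control and 54.4%, 55.4% and 57.3% in shSETD2 libraries. The share of FZD2 was 20.8% ± 0.543 and 22.5% ± 1.10 (SD, n = 3). The share of FZD7 went from 17.5% ± 0.995 to 4.28% ± 0.360, that of FZD3 from 10.5% ± 1.24 to 2.32% ± 0.681 and that of FZD8 from 10.1% ± 1.19 to 3.28% ± 0.171 (SD, n = 3). The shares of FZD4 and FZD1 were 11.8% and 7.52% in control and 6.23% and 5.71% in shSETD2 libraries. Together FZD6 and FZD2 made up most of the Frizzled transcripts in the shSETD2 libraries, where the control libraries held a more even mixture. The other listed Frizzled genes are FZD5, FZD9 and FZD10. Over all 10 listed Frizzled genes the sum was 41.8 ± 1.27 and 27.2 ± 0.824 FPKM (SD, n = 3), and FZD6 made up 17.5% and 49.2% of it.

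**Figure D3:**
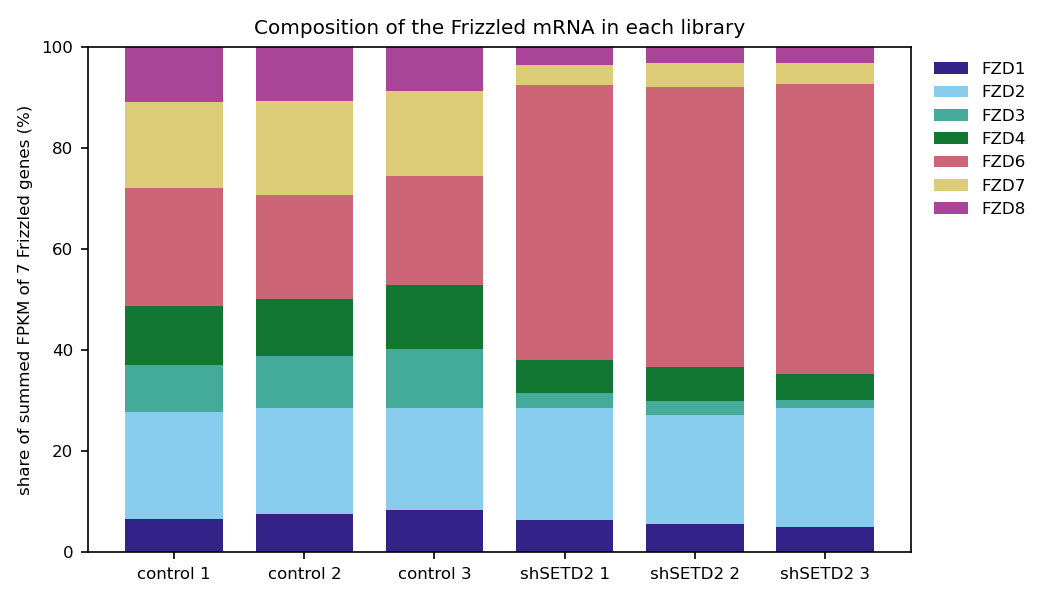
Share of each Frizzled gene (vertical axis, percent of the summed FPKM of 7 Frizzled genes) in each control and shSETD2 library, as stacked bars that sum to 100. The FZD6 segment takes 20.6% to 23.3% in control and 54.4% to 57.3% in shSETD2 libraries, and the segments of FZD3, FZD7 and FZD8 are smaller in every shSETD2 library.

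The 10 genes lie on 8 chromosomes, and FZD3 and FZD6, which moved in opposite directions, are both on chromosome 8. For each gene the tested genes within 2 Mb were summarised as a description, without a test. Around FZD6 the median log2 fold change of 13 neighbours was 0.07, with 10 of them above 0, and around FZD3 that of 25 neighbours was -0.23. Around FZD7 the median of 29 neighbours was -0.01, and all 4 tested neighbours of FZD8 were above 0 with a median of 0.67. For FZD3, FZD4, FZD7 and FZD8, the log2 fold change minus the median of the neighbours ranged from -1.96 (FZD8) to -1.16 (FZD4). FZD2 lay 0.09 above the median of its 83 neighbours (-0.41), and ROR2 was at the median of its 17 (-0.19).

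By the root mean square difference of centred log2(FPKM + 1) over the 6 libraries, the genes most like FZD6 among all genes tested were CADPS2 (0.0240), LSM14B (0.0271) and GNPDA1 (0.0373). Those most like FZD7 were JPX (0.0413), IREB2 (0.0456) and DBT (0.0582). With 2 groups, this measure mostly reflects the difference between the groups.

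The other genes of the pathway were taken from a list of 101 genes by role, which excludes the 10 receptors. Of these, 76 were listed and 69 were tested, with 17 higher and 40 lower in shSETD2 libraries, 12 that did not pass and a median log2 fold change of -0.37, against -0.29 for all genes. These counts lay near the shares of all genes tested, 26.8% higher and 51.8% lower. After median ratio scaling the counts were 25 and 27, near the 37.7% and 38.3% of all genes. Without the filter on mean FPKM, 17 pathway genes were called higher and 46 lower, against 4012 and 8118 of all 15897 genes. The counts per role below rest on few genes each and are to be read against the same shares, and a role is given with its counts after median ratio scaling where these differ. Within each role the gene with the largest rise and the gene with the largest fall among those called are named, and the calls of all 19 genes named by this rule held in every alternative analysis that tested them. The size depended on the pseudocount for AXIN2, FZD9, GPC3, LEF1, NKD1, RNF43, VANGL2 and WNT5A, whose log2 fold changes were more than 1.5 times as large with a pseudocount of 0.01, and that of NKD1 and KREMEN1 on quantile normalization and of CSNK1A1 and KREMEN1 on median ratio scaling.

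Among the ligands, 11 of 20 were listed and 9 were tested, with 4 higher and 4 lower. WNT3A and WNT8B were below the level for testing, at 0.920 to 1.071 and 0.739 to 0.957 FPKM in control and 0 in shSETD2 libraries. WNT7B, which signals to β-catenin, was at 0.369 and 15.3 FPKM on average in control and shSETD2, and WNT5A, the ligand of ROR2, was at 5.27 and 0.184 FPKM. The Wnt carrier WLS, which brings lipid-bearing Wnt proteins to the cell surface, fell from 19.9 ± 2.09 to 5.41 ± 0.516 FPKM (SD, n = 3), which on the log2 scale was -1.70 (limma adjusted p = 6.40e-06). PORCN, which attaches the lipid, did not pass, but was called higher after median ratio scaling.

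Of 7 other Wnt receptors 6 were listed and 5 tested, with 1 higher and 4 lower (1 and 2 after median ratio scaling). ROR1 had a log2 fold change of 1.76 (limma adjusted p = 5.09e-06). FZD9 was at 2.56, 2.38 and 2.41 FPKM in control and at 0.130, 0.0774 and 0.0143 FPKM in shSETD2 libraries, a log2 fold change of -1.68 (limma adjusted p = 1.23e-06). FZD10 was below the level for testing, at 0.486 to 0.763 FPKM in control and 0.0568 to 0.137 FPKM in shSETD2 libraries.

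All 8 receptor accessory genes were tested, with 1 higher and 6 lower (2 and 5 after median ratio scaling). TSPAN12, a tetraspanin that works with FZD4 in Norrin signaling, rose from 2.95 ± 0.331 to 5.38 ± 0.0608 FPKM (SD, n = 3), opposite to FZD4 itself. GPC3, a heparan sulfate proteoglycan that binds Wnt and Frizzled proteins, was at 10.9, 14.6 and 12.2 FPKM in control libraries and listed at 0 in all shSETD2 libraries. Of the R-spondin and receptor turnover genes 3 of 9 were tested, of which 2 were lower and 0 higher (2 and 1 after median ratio scaling). RNF43, a ubiquitin ligase that removes Frizzled receptors from the surface, was at 1.48, 1.39 and 1.84 FPKM in control and at 0.00866, 0 and 0.00907 FPKM in shSETD2 libraries.

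Of 16 extracellular inhibitors 7 were listed and 5 tested, and 4 of these were higher. DKK3, a secreted protein of the Dickkopf family, rose from 0.582 ± 0.161 to 22.8 ± 1.13 FPKM (SD, n = 3). KREMEN1, a membrane receptor that removes LRP6 together with Dickkopf proteins, fell from 6.14 ± 0.265 to 3.99 ± 0.334 FPKM (SD, n = 3), that is, -0.52 on the log2 scale and -0.22 after median ratio scaling.

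Downstream of the receptors, all 10 kinases and scaffolds close to the receptor were tested, with 2 higher and 5 lower (4 and 1 after median ratio scaling). DVL1, a Dishevelled protein that binds the Frizzled motif shown above, rose from 13.1 ± 0.520 to 25.0 ± 7.02 FPKM (SD, n = 3), with shSETD2 libraries at 31.0, 26.7 and 17.3 FPKM. CSNK1E, a kinase of the pathway, fell from 64.0 ± 2.17 to 24.0 ± 0.890 FPKM (SD, n = 3). Of 7 genes of the destruction complex and β-catenin, 1 was higher and 4 were lower (2 and 4 after median ratio scaling). CSNK1A1, a kinase that phosphorylates β-catenin, rose from 13.9 ± 0.341 to 17.5 ± 0.591 FPKM (SD, n = 3), that is, 0.32 on the log2 scale and 0.65 after median ratio scaling. AXIN2, a scaffold that Wnt signaling itself induces, was 13.4-fold lower, from 2.51 ± 0.425 to 0.188 ± 0.0987 FPKM (SD, n = 3), that is, -1.56 on the log2 scale and -3.78 with a pseudocount of 0.01. Of 8 TCF factors and coactivators, 1 was higher and 6 were lower (1 and 2 after median ratio scaling). BCL9L, a coactivator of β-catenin, rose from 3.15 ± 0.162 to 38.9 ± 1.96 FPKM and LEF1 fell from 4.44 ± 0.602 to 0.325 ± 0.0776 FPKM (SD, n = 3).

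Of 11 planar cell polarity genes 10 were tested, with 3 higher and 5 lower (5 and 3 after median ratio scaling). PRICKLE3 rose from 2.84 ± 0.135 to 9.69 ± 1.06 FPKM (SD, n = 3), whereas VANGL2, a core membrane protein of this pathway, was at 9.46, 8.70 and 7.79 FPKM in control and listed at 0 in all shSETD2 libraries. Of the 3 feedback targets, NKD1 and NKD2 were tested, and both were lower, NKD1 from 1.25 ± 0.0138 to 0.101 ± 0.0136 FPKM (SD, n = 3).

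**Figure D4:**
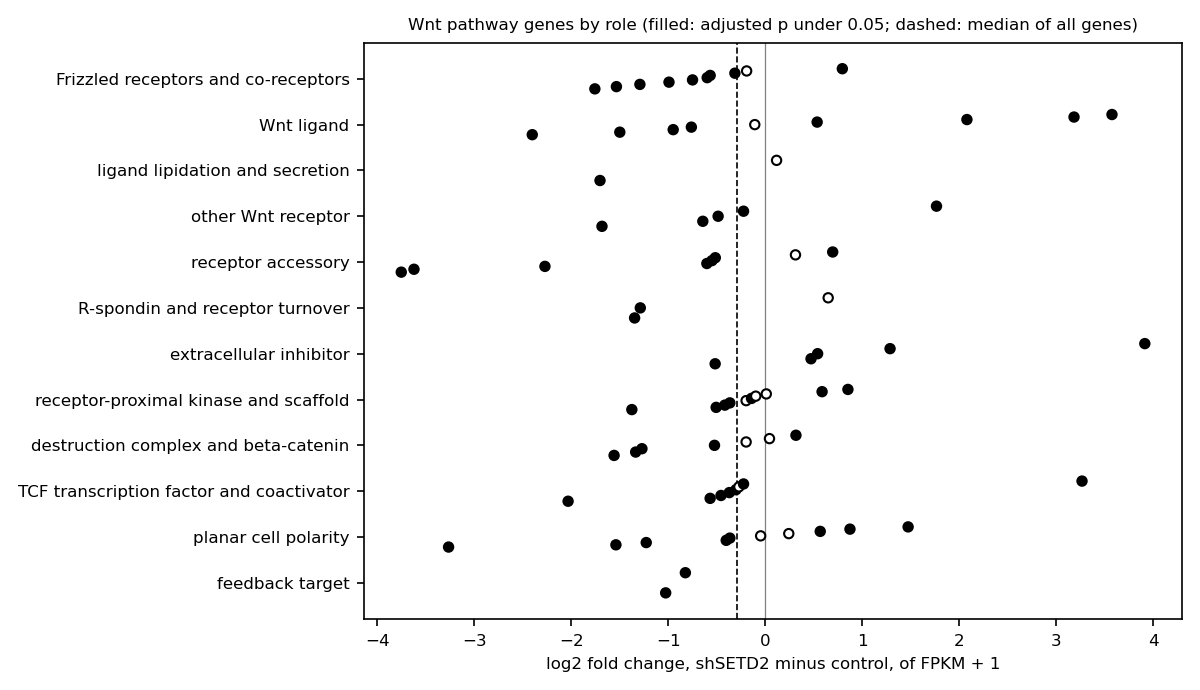
Log2 fold change of FPKM + 1 (horizontal axis, shSETD2 minus control) of the 10 receptor genes and of 69 other Wnt pathway genes by role, 1 point per gene, filled where the limma adjusted p is under 0.05, with the median of all genes as a dashed line. FZD6 is the only filled point above 0 in the row of the 10 receptors, and most roles hold points on either side of 0.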

How the data were processed

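The authors mapped reads of stranded total RNA libraries to hg19 with Hisat2, quantified genes with Ballgown and deposited FPKM per gene and library. Tool versions, the strand setting and how genes were selected for the table are not given in the sources used here. A second deposited table, with the authors' fold changes, p-values and q-values, was not used. Of the listed genes, 98.5% were found by ID in the GENCODE annotation of GRCh37, all on the same chromosome, and sequences were read from that genome.

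A mean of 0.5 FPKM or more was required, and values were fitted as log2(FPKM + 1) with limma 3.58.1 (lmFit and eBayes with an intensity trend, R 4.3.3), for 3 control against 3 shSETD2 libraries, and p-values were adjusted by Benjamini-Hochberg across the genes fitted. The fit was also run on simulated data with normal noise and few changed genes. Most genes were called in the real data, so that run does not bear on these calls. Alternatives were other pseudocounts, filters, scalings and variance models, the replicate number as a block, a lowess correction for GC content and exon length (span 0.3), and each library left out.

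Named genes were the 10 receptors, SETD2, the largest rise and fall among called genes in each role, and the 3 genes most like FZD6 and FZD7. Others (lineage markers, PRSS23, FZD5, FZD10, PORCN, NKD2, WNT3A, WNT8B) were chosen after their values were seen. The members and lists were chosen with earlier results of these data known. Python 3.11.15 served for tables (pandas 2.3.3, numpy 2.4.6) and plots (matplotlib 3.10.9).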

Additional observations from a re-analysis of the deposited data

How the results depend on the processing

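Of the 10 receptor genes, FZD3, FZD4, FZD6, FZD7, FZD8, LRP5 and LRP6 kept their direction and call in every alternative that tested them. FZD1 lost its call with quantile normalization (-0.20) and FZD2 with median ratio scaling (-0.01). ROR2 turned sign with quantile normalization (0.22) and median ratio scaling (0.02) and was called with the GC and length correction (-0.34). Leaving out 1 library gave ROR2 values from -0.27 to -0.15. The cause was not tested. A minimum of 5 FPKM tests 7078 genes and so calls fewer, with 5647 in all (2401 higher, 3246 lower), 4 receptor genes (3 lower) and 29 other Wnt genes (10 higher, 19 lower). The summed FPKM of the 7 Frizzled genes was 30.9 and 26.1 (control and shSETD2) with quantile normalization and 29.6 and 27.2 with median ratio scaling, and the LRP5 to LRP6 ratio in control was 1.39 with quantile normalization. The share of higher genes among all calls was 34.1% as deposited and 49.6% with median ratio scaling.

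Same-numbered libraries of the groups did not deviate together (r of deviations -0.02, 0.02 and -0.01), and with the replicate number as a block 9 receptor genes and 10976 genes in all were called. Precision is set by 3 libraries a group, since the depth behind FPKM is unknown.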
